A study of Mus musculus with 6 samples.

Results

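The angiotensin and endothelin systems were examined through 9 genes, picked by symbol from the deposited FPKM table of 54532 genes by way of their Ensembl identifiers in GENCODE release M21. They are Agt, Ace, Cma1 and Agtr1a for angiotensin, Edn1, Ece1, Ednra and Ednrb for endothelin, and Nr3c2 for the mineralocorticoid receptor. Left ventricular myocardium was sequenced from 3 control (Chow) and 3 HFpEF mice, 1 library per mouse, all male C57BL/6 mice 6 to 8 weeks old at the start. For 12 weeks the HFpEF mice ate a high-fat diet, 60% kcal from fat, and drank water with L-NAME at 0.5 g/L, while Chow mice had standard chow and regular water. L-NAME inhibits nitric oxide synthase, so diet and drug were given together and cannot be told apart. The 9 genes were compared between the groups, the contrast that the study set up to describe HFpEF myocardium.

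Angiotensinogen, a secreted precursor, is cut by renin to angiotensin I, which angiotensin-converting enzyme or chymase turns into angiotensin II. Angiotensin II acts on AT1 receptors to constrict vessels and to drive aldosterone release, and aldosterone binds the mineralocorticoid receptor. Endothelin-1 is made as a longer precursor, trimmed by endothelin-converting enzyme, and acts on the ETA receptor, which constricts vessels, and on the ETB receptor, which in endothelium clears the peptide and releases nitric oxide. Nitric oxide is known to restrain endothelin-1 production.

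FPKM is the authors' unit, fragments scaled to exon length and to a depth set per library. It was higher in every HFpEF than every Chow mouse for the ligand gene Edn1, its receptor gene Ednra and the enzyme genes Ace and Cma1. The receptor gene Agtr1a was lower in every HFpEF mouse, and Agt, Ece1, Ednrb and Nr3c2 overlapped between groups. The differences were moderate, from a log2 fold change of −0.69 for Agtr1a to 0.67 for Cma1. All 9 genes passed the minimum of 0.5 FPKM in 3 libraries, and limma on log2(FPKM + 0.1) gave Benjamini-Hochberg adjusted p from 0.119 to 0.990 over the 14227 genes tested. So 0 of 9 were under 0.05, against 0.0984% of all genes. At the study's DEG thresholds, which add a log2 fold change of 2 or more in size, this fit called 0 of 9, against 0.0562% of all genes. The study applied its thresholds with DESeq2 and reported many more DEGs than the 8 called here. The 0.0562% is therefore the share in this fit and not that of the study. At an unadjusted p under 0.05 there were 5 of 9 genes, 4 higher and 1 lower, against 23.4% of all genes tested (10.2% higher and 13.1% lower). With voom on reads recovered from the FPKM, 0 of 9 were under 0.05 adjusted and 4 of 9 unadjusted. Of the 14222 genes in that fit, 0 were under 0.05 adjusted and 3357 unadjusted. No overlap between groups in either direction was seen for 5 of 9 genes, against 35.3% of all genes tested (15.5% higher and 19.8% lower). The median log2 fold change of the 9 genes was 0.094, beside −0.012 over all genes tested. Since bulk tissue was sequenced, fewer cells of a type and less RNA per cell cannot be told apart.

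HFpEF replicate 3 stood apart from the other libraries. Mitochondrially encoded genes took 7.17% of its recovered reads, against 20.1% and 22.6% in the other HFpEF libraries and 24.0% to 26.0% in Chow. Recovered reads totalled 13076772 to 15574914 in Chow and 13461735 to 16027084 in HFpEF. The depth implied by the FPKM of 1 read was 11734336 to 14239712 in Chow and 13847565 to 19316914 in HFpEF, highest in replicate 3. This depth lay below the recovered total in every Chow library and above it in every HFpEF library. Ventricular cardiomyocyte markers, led by Actc1, Mb and Myh6, summed to 17205 to 18269 FPKM in Chow and to 8050 to 12808 in HFpEF. Of these, 8 of 8 were lower in every HFpEF mouse, against 19.8% of all genes tested. The part of these cardiomyocyte levels in the results was not tested, while values without replicate 3 are given where it moved them. Under quantile normalization their median log2 fold change was −0.00061 with 0 of 8 under an unadjusted p of 0.05, against −0.68 and 4 of 8 here. Adipocyte markers summed to 84.3 to 95.01 FPKM in Chow and 106 to 152 in HFpEF, and the marker Cfd was listed at 0 in every Chow library and at 22.9 to 37.8 FPKM in HFpEF. Nearly all of the Chow sum was Fabp4, which was lower in HFpEF, at 60.4 to 69.8 FPKM, so the sums understate the rise of the other markers. Of 6 adipocyte markers tested, 4 met the DEG thresholds in this fit, against 0.0562% of all genes tested.

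**Figure D1:**
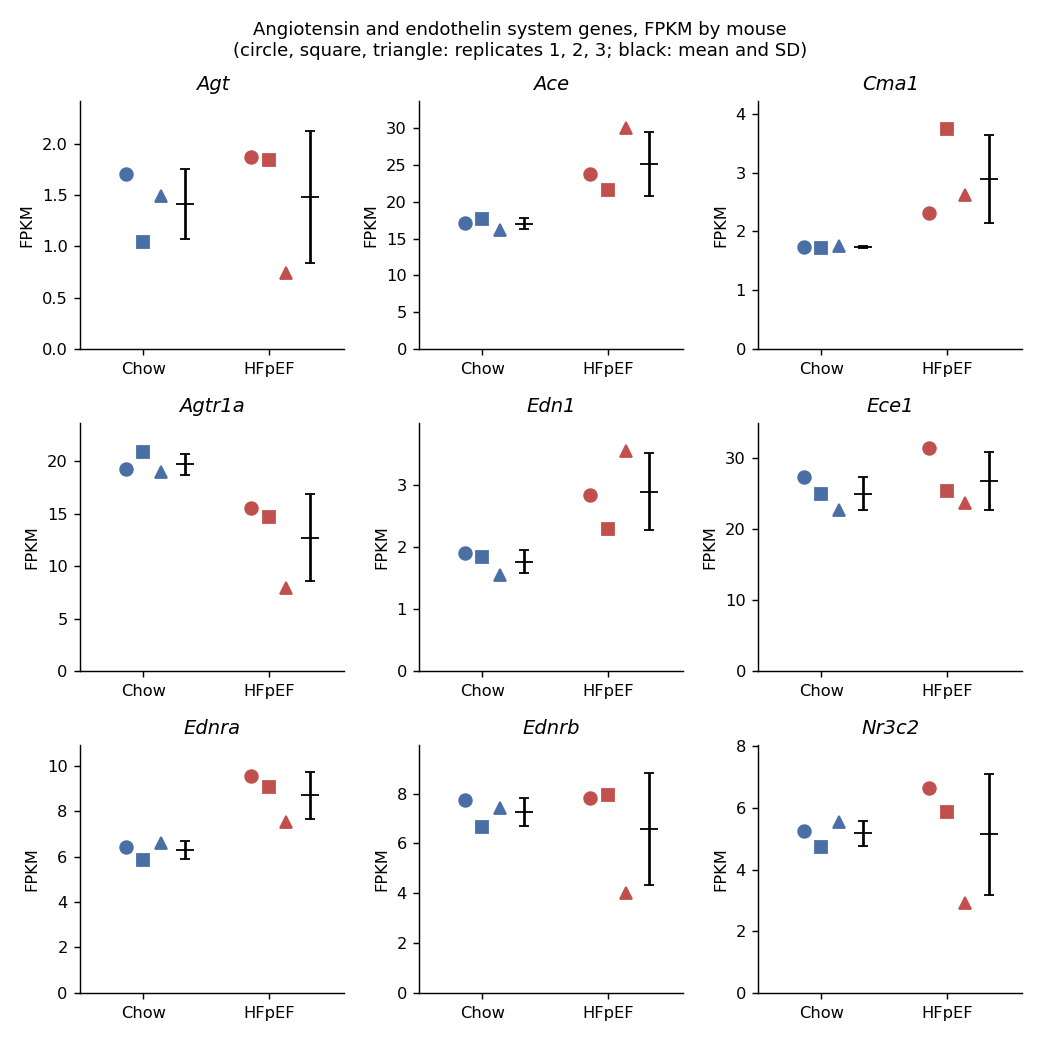
FPKM of the 9 genes on linear axes that start at 0, with 3 Chow mice in blue and 3 HFpEF mice in red, circle, square and triangle for replicates 1, 2 and 3, and mean and SD in black. Ace, Cma1, Edn1 and Ednra lie above the Chow mice in every HFpEF mouse, Agtr1a lies below, and HFpEF replicate 3 is the lowest point for Agt, Agtr1a, Ednrb and Nr3c2.

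The sequences upstream of the 4 genes that were higher without overlap are shown, since these members were higher together. Each is the 250 bases before the RefSeq start (GRCm38.p6), 5′ to 3′ on the gene's strand, at chr11:105967698-105967947 for Ace (plus strand), chr14:55944676-55944925 for Cma1 (minus), chr13:42301226-42301475 for Edn1 (plus) and chr8:77724453-77724702 for Ednra (minus). Capitals mark matches on either strand to a TATA box spelled TATAAA, the site of GATA factors spelled AGATAA, that of AP-1 spelled TGANTCA, that of NFAT spelled TGGAAA, a corticosteroid receptor half-site spelled TGTTCT and the site of Sp1 spelled GGGCGG.
Ace: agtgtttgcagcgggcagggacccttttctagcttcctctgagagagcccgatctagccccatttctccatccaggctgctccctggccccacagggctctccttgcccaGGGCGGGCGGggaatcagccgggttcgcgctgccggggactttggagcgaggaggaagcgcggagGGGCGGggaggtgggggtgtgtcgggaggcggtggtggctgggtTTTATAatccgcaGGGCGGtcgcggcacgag
Cma1: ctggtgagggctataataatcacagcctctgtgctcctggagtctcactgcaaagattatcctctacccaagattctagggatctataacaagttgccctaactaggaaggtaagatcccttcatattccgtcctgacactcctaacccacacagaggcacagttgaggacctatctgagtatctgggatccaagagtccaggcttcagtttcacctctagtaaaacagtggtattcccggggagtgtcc
Edn1: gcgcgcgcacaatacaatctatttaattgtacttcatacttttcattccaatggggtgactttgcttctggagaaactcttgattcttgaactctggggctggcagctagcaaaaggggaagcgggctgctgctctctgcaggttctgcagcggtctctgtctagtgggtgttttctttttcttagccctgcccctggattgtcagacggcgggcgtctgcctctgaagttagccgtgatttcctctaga
Ednra: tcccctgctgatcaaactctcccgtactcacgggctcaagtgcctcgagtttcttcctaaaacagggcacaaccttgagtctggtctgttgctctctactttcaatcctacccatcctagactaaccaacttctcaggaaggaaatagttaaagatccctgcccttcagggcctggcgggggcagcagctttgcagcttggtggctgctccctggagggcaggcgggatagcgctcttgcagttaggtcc
In this window Ace held 4 Sp1 matches on the given strand, of which the first pair overlap by 2 bases, and 1 TATA match on the other strand, whereas Cma1, Edn1 and Ednra held none of the 6 motifs in this window. Among 32851 promoter windows of this length, 32.7% held the Sp1 letters, 12.4% TATA, 18.6% NFAT, 16.1% the half-site, 9.99% GATA and 6.75% AP-1. The 4 windows thus shared no match to these letters. With motif shares this low, a match in all 4 windows would be rare, so nothing is concluded from its absence. RefSeq gives a second start for Ace, whose window at chr11:105974939-105975188 held 0 matches. Windows were found for 8 of the 9 genes, all but Agtr1a.

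Agt (ENSMUSG00000031980, chromosome 8 from 124556534 to 124569706), which encodes angiotensinogen, was the least abundant of the 9 genes in both groups. Chow mice had 1.71, 1.04 and 1.49 FPKM, and HFpEF mice 1.87, 1.84 and 0.739, in the order of replicates 1, 2 and 3. The highest and the lowest value both came from HFpEF mice, and the groups overlapped. The fitted log2 fold change was −0.0089 with a 95% interval from −0.93 to 0.91 (adjusted p = 0.990, limma). These values rest on 23 to 59 reads per library. Counting alone gives an SD of about 0.241 FPKM at the Chow level, against 0.342 between Chow mice. Agt is known to be expressed in adipocytes as well. Of the most abundant adipocyte markers, Cfd and Car3 had 0 or 1 read in each Chow library and 407 to 1367 in each HFpEF library, while Fabp4, which endothelium also expresses, was lower, with a mean of 90.7 FPKM in Chow and 64.7 in HFpEF.

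Ace (ENSMUSG00000020681, chromosome 11 from 105967945 to 105989964) encodes the peptidase, abundant on endothelium, that forms angiotensin II and breaks down bradykinin. Its FPKM was 17.0, 17.7 and 16.2 in Chow and 23.7, 21.6 and 29.9 in HFpEF replicates 1, 2 and 3. Every HFpEF mouse lay above every Chow mouse, and replicate 3 was the highest. On the log2 scale the fold change from limma was 0.55, standard error 0.14 and adjusted p = 0.119, a fold of 1.46. With 1036 to 3056 reads per library, counting error was small beside the spread between HFpEF mice. Without HFpEF replicate 3 the log2 fold change was 0.41 (standard error 0.078) and the adjusted p was 0.0348, and over all alternatives the adjusted p ran from 0.0348 to 0.358.

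Endothelial markers did not share this direction. Of 8 tested, 1 had a log2 fold change above 0 and 3 were lower in every HFpEF mouse, against 19.8% of all genes tested. The 8 summed to 204 to 223 FPKM in Chow and 167 to 184 in HFpEF, with none at 0. Cdh5, the adhesion protein of endothelial junctions, had 68.7 to 76.1 FPKM in Chow and 45.3 to 54.2 in HFpEF, whereas Pecam1 had 32.4 to 36.4 and 32.1 to 33.7. The other endothelial marker among the most abundant, Tie1, had 31.5 to 35.0 FPKM in Chow and 25.0 to 30.2 in HFpEF.

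Cma1 (ENSMUSG00000022225, chromosome 14 from 55941451 to 55944675) encodes a chymase of mast cell granules. Its FPKM was 1.74, 1.72 and 1.74 in Chow and 2.31, 3.74 and 2.61 in HFpEF replicates 1, 2 and 3. The groups did not overlap, and the highest mouse was HFpEF replicate 2. Fitted with limma, the log2 fold change came to 0.67 (standard error 0.20, adjusted p = 0.137), a fold of 1.6. The Chow values rest on only 22 to 27 reads each. Their SD of 0.0117 FPKM is far below the 0.355 that counting alone would give, so the near identity of the Chow mice is closer than the reads can resolve. Mcpt4, the gene of a further mast cell chymase, had 2.92, 2.85 and 2.46 FPKM in Chow and 5.20, 4.10 and 3.97 in HFpEF, a log2 fold change of 0.66 (standard error 0.15, adjusted p = 0.109, limma). Both chymase genes were therefore higher in 3 of 3 HFpEF mice than in any Chow mouse. Of the other mast cell markers, the tryptase gene Tpsb2 and the receptor gene Kit overlapped between groups, with log2 fold changes of 0.56 and −0.15. The remaining tested markers, named to complete the list, were the carboxypeptidase gene Cpa3, with 1.11, 0.956 and 0.218 FPKM in Chow and 1.57, 1.83 and 1.3 in HFpEF, and Hdc, which encodes histidine decarboxylase, with a log2 fold change of 0.071. Cpa3 did not overlap, at a log2 fold change of 1.15 (standard error 0.52, adjusted p = 0.239, limma) on 4 to 47 reads. The 8 mast cell markers summed to 6.93 to 9.55 FPKM in Chow and 10.9 to 13.2 in HFpEF, with none at 0 in all libraries and 5 of 8 tested. Relative to these 5, the log2 level of Cma1 was 0.44 ± 0.25 in Chow mice and 0.66 ± 0.25 in HFpEF mice (SD, n = 3 each), and the groups overlapped (exact permutation test, two-sided, p = 0.5).

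Agtr1a (ENSMUSG00000049115, chromosome 13 from 30336441 to 30382867) encodes the main AT1 receptor of the mouse. Its FPKM was 19.3, 20.9 and 18.9 in Chow and 15.5, 14.7 and 7.92 in HFpEF replicates 1, 2 and 3. Every HFpEF mouse lay below every Chow mouse, with replicate 3 far below the others. The limma fit gave a log2 fold change of −0.69 with a standard error of 0.26 (adjusted p = 0.187), a level 1.61-fold lower. Without HFpEF replicate 3 it was −0.38 (standard error 0.076, adjusted p = 0.0390), so the estimate became smaller and its error smaller still. Over all alternatives the adjusted p ran from 0.0390 to 0.407.

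Agtr1a transcripts are known from pericytes and fibroblasts of the heart, and their markers went different ways. The pericyte markers had a median log2 fold change of −0.31, with 3 of 8 lower in every HFpEF mouse and 0 higher (19.8% and 15.5% of all genes tested). Their most abundant genes were Rgs5, with 143 to 165 FPKM in Chow and 109 to 147 in HFpEF, and Abcc9, with 52.3 to 57.1 and 27.1 to 33.5. Pdgfrb overlapped between groups, at 19.9 to 22.4 and 16.9 to 32.2 FPKM. The pericyte list summed to 279 to 306 FPKM in Chow and 206 to 273 in HFpEF, with none at 0. Relative to the pericyte markers, the log2 level of Agtr1a was 0.0017 ± 0.094 in Chow mice and −0.43 ± 0.75 in HFpEF mice (SD, n = 3 each), where replicates 1 and 2 had −0.045 and 0.043 and replicate 3 had −1.30 (exact permutation test, two-sided, p = 0.5). Without replicate 3 the difference was −0.0028. The pericyte markers did not move as 1 set, since with all mice 3 of 8 had a log2 fold change above 0. The part of pericyte levels in Agtr1a was not tested. The fibroblast markers were higher, with a median log2 fold change of 0.98 and 6 of 8 above Chow in every HFpEF mouse (15.5% of all genes tested). They summed to 676 to 859 FPKM in Chow and 1247 to 3398 in HFpEF, with none at 0. Relative to these, the difference of Agtr1a between HFpEF and Chow was −1.89 on the log2 scale (−0.55 ± 0.13 in Chow and −2.44 ± 1.23 in HFpEF, SD, n = 3, exact permutation test, two-sided, p = 0.1), or −1.18 without replicate 3. Gsn and Dcn were the most abundant fibroblast markers in Chow. Col1a1, also named by level, was at 2252 FPKM in HFpEF replicate 3 against 53.9 and 87.3 in replicates 1 and 2. Its Chow mean of 25.9 FPKM was below that of Dpt, 54.0, so its rank rests on replicate 3.

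The other angiotensin receptors were scarce. Agtr1b was listed at 0 in all 6 libraries, and Agtr2, the AT2 receptor, had 5 reads in HFpEF replicate 3 and 0 elsewhere, which leaves both at the edge of detection. Mas1, the receptor for angiotensin 1-7, had 1.1, 1.04 and 1.23 FPKM in Chow and 0.908, 0.744 and 0.395 in HFpEF. Like Agtr1a it was below Chow in 3 of 3 HFpEF mice with replicate 3 lowest, at a log2 fold change of −0.70 (standard error 0.32, adjusted p = 0.236, limma).

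Edn1 (ENSMUSG00000021367, chromosome 13 from 42301476 to 42307990) encodes the precursor of endothelin-1. Its FPKM was 1.90, 1.84 and 1.55 in Chow and 2.83, 2.29 and 3.53 in HFpEF replicates 1, 2 and 3. The groups did not overlap, and replicate 3 was the highest. On the log2 scale the fold change from limma was 0.66, standard error 0.19 and adjusted p = 0.136, a fold of 1.59, on 40 to 58 reads in Chow and 83 to 146 in HFpEF. Counting alone would give an SD of 0.255 FPKM in Chow, more than the 0.190 between mice. The log2 fold change was between 0.48 and 0.81 under every alternative, with adjusted p from 0.111 to 0.358, so no alternative passed 0.05. Relative to the 8 endothelial markers, Edn1 stood at −3.42, −3.47 and −3.56 on the log2 scale in Chow and at −2.74, −2.81 and −2.25 in HFpEF. The difference of 0.88 was larger than that of Edn1 alone, since the endothelial markers were lower, and the groups did not overlap (exact permutation test, two-sided, p = 0.1). The other ligand genes were near the limit of detection. Edn2 had 3 reads in Chow replicate 1 and 0 in the other libraries, and Edn3 had 5 to 12 reads in every library with the groups overlapping.

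Ece1 (ENSMUSG00000057530, chromosome 4 from 137862237 to 137965229), which encodes the converting enzyme for endothelin-1, was the most abundant of the 9 genes. Its FPKM was 27.3, 25.0 and 22.8 in Chow and 31.4, 25.4 and 23.7 in HFpEF. HFpEF replicate 1 was the highest, and the other HFpEF mice fell within the Chow range. The log2 fold change was 0.094 with a 95% interval from −0.24 to 0.43 (adjusted p = 0.702, limma), on 1459 to 2425 reads per library. Ece2, a related enzyme, had 0 to 12 reads.

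Ednra (ENSMUSG00000031616, chromosome 8 from 77663031 to 77724464) encodes the ETA receptor. Its FPKM was 6.43, 5.84 and 6.60 in Chow and 9.53, 9.04 and 7.54 in HFpEF replicates 1, 2 and 3. The HFpEF mice all lay above Chow, and here replicate 3 was the lowest of them. Fitted with limma, the log2 fold change came to 0.46 (standard error 0.12, adjusted p = 0.123), a fold of 1.37. Without HFpEF replicate 3 it was 0.56 (standard error 0.091) with an adjusted p of 0.0248, and over all alternatives the adjusted p ran from 0.0248 to 0.362. Exons of Ednra overlap an antisense gene, 4933431K23Rik, at a mean of 0.708 FPKM, and whether the counting used strand is not given in the sources used here. The antisense partners of Ace, Edn1 and Nr3c2 were lower, at means of 0.00645, 0.0724 and 0.0668 FPKM. Relative to the fibroblast markers, the difference of Ednra between HFpEF and Chow was −0.75 on the log2 scale (−2.18 ± 0.17 in Chow and −2.93 ± 0.87 in HFpEF, SD, n = 3, exact permutation test, two-sided, p = 0.1), or −0.25 without HFpEF replicate 3.

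Ednrb (ENSMUSG00000022122, chromosome 14 from 103814625 to 103844402) encodes the ETB receptor. Its FPKM was 7.74, 6.66 and 7.40 in Chow and 7.81, 7.94 and 3.99 in HFpEF replicates 1, 2 and 3. HFpEF replicates 1 and 2 were slightly above every Chow mouse and replicate 3 was far below, so the groups overlapped. Its log2 fold change was −0.20 with a 95% interval from −0.85 to 0.44 (adjusted p = 0.662, limma), and 0.12 without replicate 3. Relative to the endothelial markers, the level was −1.50 ± 0.15 in Chow mice and −1.48 ± 0.54 in HFpEF mice (SD, n = 3 each) (exact permutation test, two-sided, p = 1).

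The balance between the endothelin receptors differed between the groups in every mouse. For replicates 1, 2 and 3, Chow mice had a log2 ratio of Ednra to Ednrb of −0.26, −0.19 and −0.16, and HFpEF mice of 0.28, 0.19 and 0.90. Ednrb was thus the more abundant receptor transcript per length in all Chow mice and Ednra in all HFpEF mice. The difference was 0.66 (exact permutation test, two-sided, with p = 0.1 as its lowest possible value). It ranged from 0.44 to 0.80 with any 1 library left out, and the lowest value was that without HFpEF replicate 3.

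**Figure D2:**
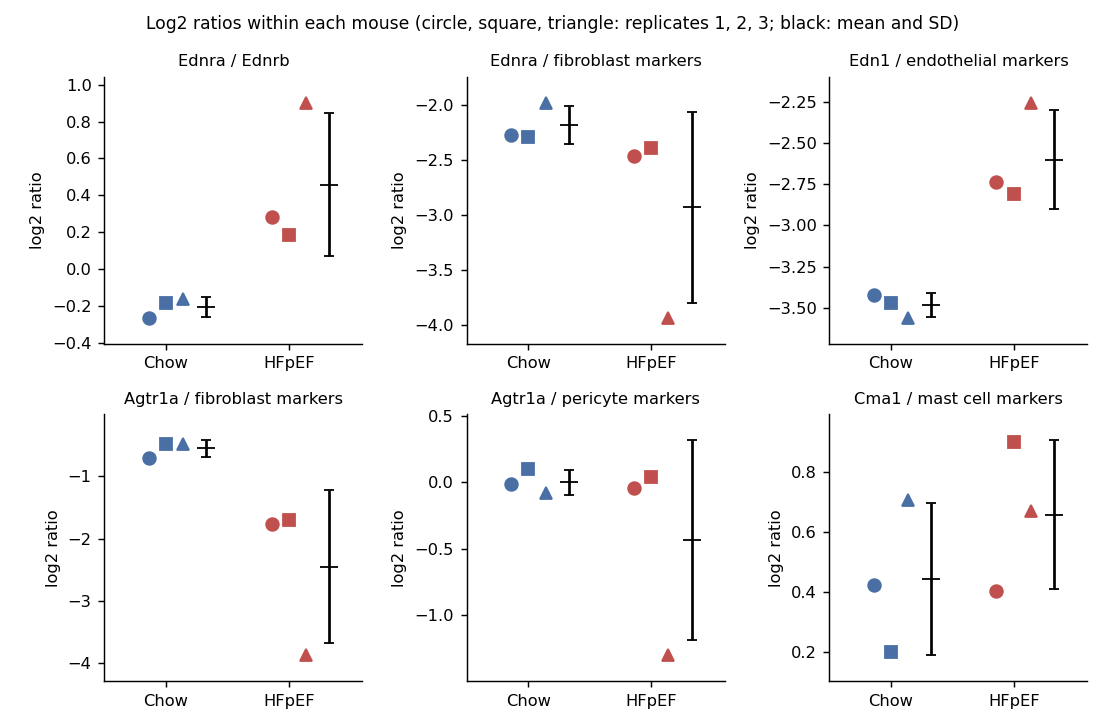
Log2 ratios within each mouse on separate linear axes, with Chow in blue, HFpEF in red, circle, square and triangle for replicates 1, 2 and 3, and mean and SD in black. The groups are separate for Ednra over Ednrb, for Edn1 over endothelial markers and for Ednra and Agtr1a over fibroblast markers, and overlap for Agtr1a over pericyte markers and Cma1 over mast cell markers.

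Nr3c2 (ENSMUSG00000031618, chromosome 8 from 76899442 to 77245012) encodes the mineralocorticoid receptor, which in cardiomyocytes binds glucocorticoids as well as aldosterone. Its FPKM was 5.26, 4.73 and 5.54 in Chow and 6.65, 5.87 and 2.92 in HFpEF replicates 1, 2 and 3. As with Ednrb, replicates 1 and 2 were above every Chow mouse and replicate 3 was below. The log2 fold change was −0.089 with a 95% interval from −0.81 to 0.63 (adjusted p = 0.874, limma), and it was 0.27 (adjusted p = 0.204) without replicate 3. The glucocorticoid receptor gene Nr3c1 varied less, from 15.8 to 18.2 FPKM over all 6 libraries, with a log2 fold change of −0.015 (standard error 0.099, adjusted p = 0.937, limma). The log2 ratio of Nr3c2 to Nr3c1 was −1.70 ± 0.061 in Chow mice and −1.78 ± 0.54 in HFpEF mice (SD, n = 3 each) (exact permutation test, two-sided, p = 1). Hsd11b2, the enzyme that shields the receptor from glucocorticoids in kidney, had 0 to 3 reads except for 14 in HFpEF replicate 3. Hsd11b1, which regenerates active glucocorticoid, had 6.00, 6.71 and 4.69 FPKM in Chow and 2.37, 4.74 and 1.88 in HFpEF. It overlapped between groups and, named here after its values were seen, had the lowest log2 fold change of the 18 tested pathway genes, −1.02 (standard error 0.34, adjusted p = 0.161, limma). Cyp11b2, aldosterone synthase, was listed at 0 in all 6 libraries.

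**Figure D3:**
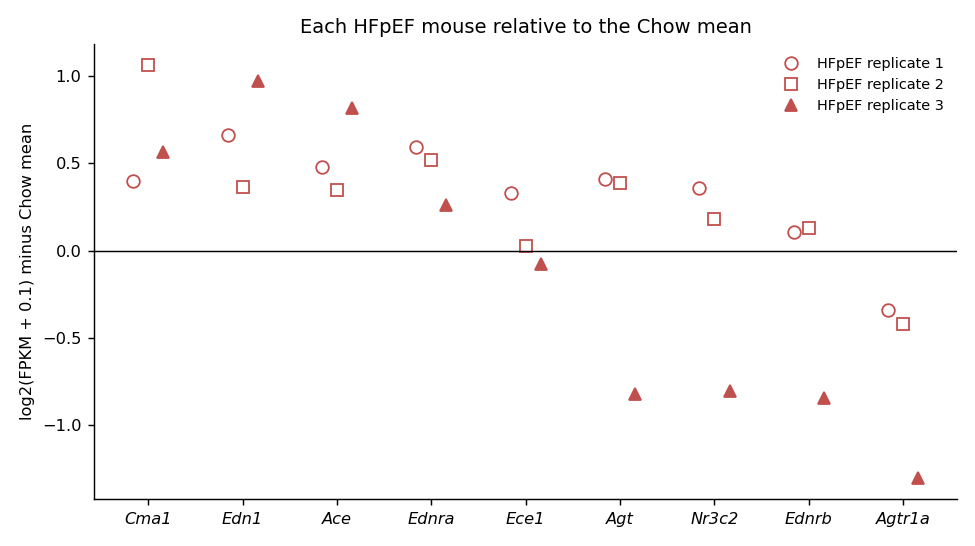
Each HFpEF mouse (open circle, open square and filled triangle for replicates 1, 2 and 3) minus the Chow mean on the log2(FPKM + 0.1) scale, with genes in the order of their log2 fold change. Replicates 1 and 2 lie above 0 for 8 of the 9 genes and below it for Agtr1a, while replicate 3 lies between −0.80 and −1.30 for Nr3c2, Agt, Ednrb and Agtr1a and at 0.82 and 0.97 for Ace and Edn1.

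Read by mouse, replicate 3 was set apart from both other HFpEF libraries for Agt, Agtr1a, Ednrb and Nr3c2, whereas for Cma1 replicate 2 was the one set apart. In replicate 1 the median over the 9 genes was 0.40 above the Chow mean on the log2 scale, in replicate 2 it was 0.34, and in replicate 3 it was −0.074. Replicate 3 was the lowest of all 6 libraries for 4 of 9 genes, against 34.6% of all genes tested. It was the highest for Ace and Edn1, 2 of 9 genes, against 30.5%. Without replicate 3, adjusted p was under 0.05 for Ace, Ednra and Agtr1a, 3 of 9 genes, against 8.35% of all genes tested (2.85% higher and 5.50% lower). Unadjusted, 5 of 9 genes were under 0.05 without it, against 25.2%.

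The order of the levels differed between groups. In Chow it was Ece1, Agtr1a, Ace, Ednrb, Ednra, Nr3c2, Edn1, Cma1 and Agt, from 25.0 to 1.41 FPKM in the mean. Neighbours in that order had separate ranges, except for Edn1 with Cma1, whose values crossed. In HFpEF Ace came before Agtr1a, Ednra before Ednrb and Cma1 before Edn1. Separate ranges then remained only between Ace and Agtr1a and between Edn1 and Agt, and all other neighbours overlapped. Transcripts for the enzymes Ece1 and Ace were thus well above those for the ligand genes Agt and Edn1 per length in both groups.

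The genes with the nearest profile were found by the root mean square distance of log2 levels relative to the Chow mean over the 6 libraries, among all genes tested. They were Crhr2 for Agtr1a (distance 0.030), Atp1b2 for Ece1 (0.017), Evc2 for Ace (0.042), Maob for Ednrb (0.055), Daam2 for Ednra (0.059), Tmem43 for Edn1 (0.063), Epb41 for Nr3c2 (0.068), Rarres2 for Cma1 (0.077) and Wnk4 for Agt (0.097). Crhr2, the gene of a receptor for urocortins, had 8.61, 8.88 and 8.65 FPKM in Chow and 6.84, 6.53 and 3.48 in HFpEF, the same stepped pattern as Agtr1a. Maob, which encodes monoamine oxidase B, had 25.9, 23.3 and 26.9 FPKM in Chow and 27.2, 29.5 and 14.6 in HFpEF, the pattern of Ednrb.

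Beyond the 9 genes, a list of 32 further genes of angiotensin formation and breakdown, its receptors, endothelin and mineralocorticoid synthesis was examined. Of these 18 passed the minimum, limma left 0 under an adjusted p of 0.05, and 6 of 18 were under an unadjusted 0.05, 4 higher and 2 lower, against the 23.4% of all genes tested (10.2% higher and 13.1% lower). The median log2 fold change was −0.037. By role, 3 of the 12 tested genes for angiotensin formation and breakdown were higher at an unadjusted p under 0.05 and 0 lower. Of the 3 tested receptor partners, 1 was higher and 1 lower, and of the 3 tested mineralocorticoid genes 0 were higher and 1 lower. Anpep, the aminopeptidase that trims angiotensin III, had 4.60, 4.35 and 4.12 FPKM in Chow and 8.0, 7.59 and 17.1 in HFpEF, a log2 fold change of 1.20 (standard error 0.31, adjusted p = 0.119, limma). Atp6ap2, which encodes the prorenin receptor, had 7.06, 6.32 and 7.77 FPKM in Chow and 10.7, 10.1 and 16 in HFpEF, a log2 fold change of 0.77 (standard error 0.19, adjusted p = 0.119, limma). Both were highest in replicate 3, yet had an adjusted p under 0.05 without it, at 0.0138 and 0.0354. Prcp, a carboxypeptidase that converts angiotensin II to angiotensin 1-7, had a log2 fold change of 0.65 and Ctsd, a lysosomal protease, −0.25, each without overlap between groups. Renin itself (Ren1) had 6 and 2 reads in HFpEF replicates 1 and 2 and 0 in the other 4 libraries.

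**Figure D4:**
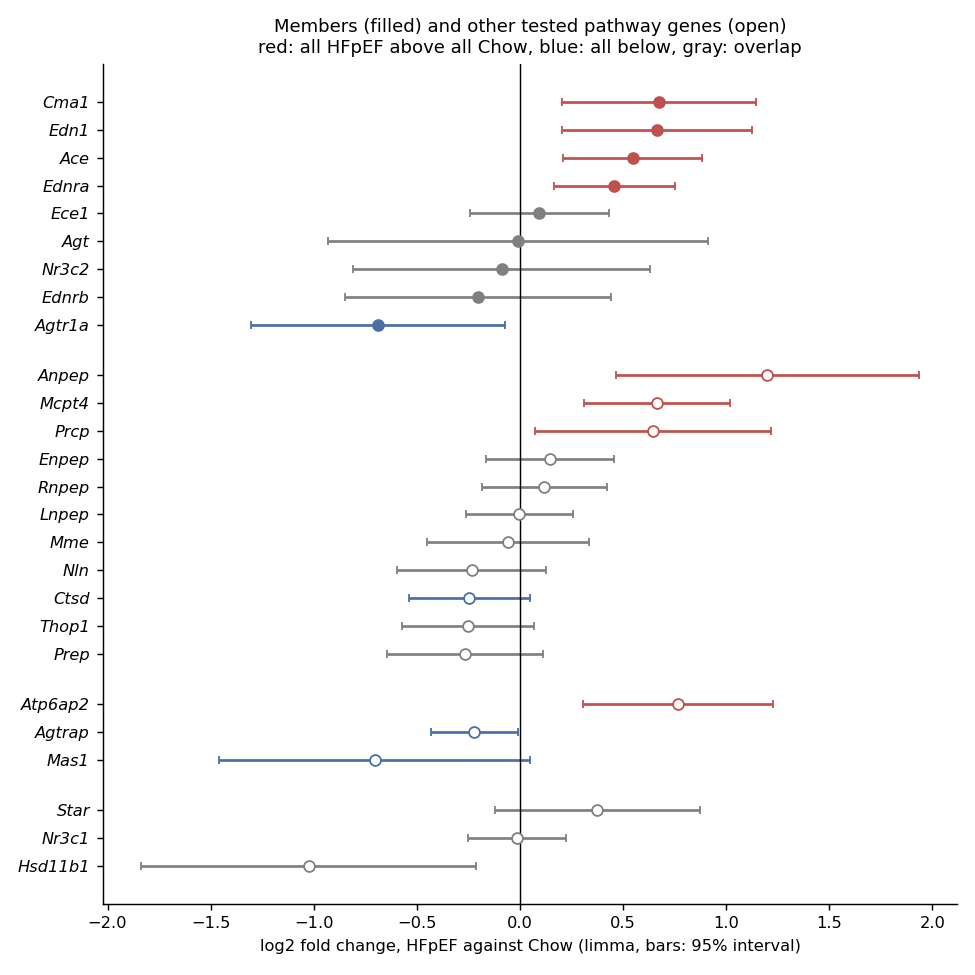
Log2 fold change of HFpEF against Chow with its 95% interval from limma, for the 9 genes (filled) and 17 of the 18 other tested pathway genes by role (open), red or blue where the groups did not overlap. Agtr1a and Mas1 lie at −0.69 and −0.70, and Anpep at 1.20 has the highest value.

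Downstream genes were examined in the same way. Of 26 genes for G protein signaling behind the peptide receptors, all were tested and limma left 0 under an adjusted p of 0.05, while 6 of 26 were under an unadjusted 0.05, 4 higher and 2 lower, a share near the 23.4% of all genes tested. The median log2 fold change was 0.11. Protein kinase C isoforms went different ways without overlap between groups. Prkcd had 3.25 to 3.73 FPKM in Chow and 4.55 to 10.05 in HFpEF, and Prkcb 0.357 to 0.446 and 0.537 to 1.14, whereas Prkce had 7.11 to 7.63 in Chow and 4.00 to 5.44 in HFpEF. Prkce, an isoform abundant in cardiomyocytes, had a log2 fold change of −0.63 (standard error 0.14, adjusted p = 0.107, limma). Arrb1, Plcb3 and Gna12 completed the genes named by rule, with log2 fold changes of 0.49, 0.35 and −0.31.

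Of 19 genes known to rise with angiotensin II or endothelin-1 in the heart, 17 were tested and 15 had a log2 fold change above 0. At an unadjusted p under 0.05, 6 were higher and 0 lower, against 10.2% and 13.1% of all genes tested. After adjustment 0 were under 0.05 (limma). The median log2 fold change was 0.94. In 9 of the 17 every HFpEF mouse was above every Chow mouse, against 15.5% of all genes tested. The leading genes encode matrix proteins and their enzymes and inhibitors, and the 6 named by rule were highest in replicate 3. Postn had 4.27 to 5.80 FPKM in Chow and 19.2, 16.2 and 356 in HFpEF replicates 1, 2 and 3. Timp1 had 1.27 to 1.44 FPKM in Chow and 4.22, 6.71 and 55.4 in HFpEF. Lox, Fn1, Col1a1 and Col3a1 had log2 fold changes of 2.85, 2.42, 3.08 and 2.60, which became 1.76, 1.28, 1.40 and 1.13 without replicate 3, while those of Postn and Timp1 went from 3.28 and 3.04 to 1.84 and 1.92. Col1a1 and Col3a1 missed the unadjusted threshold too (adjusted p = 0.223 and 0.239, limma). Ccn2, the gene of a matrix-associated growth factor, and Nppb, that of B-type natriuretic peptide, named after their values were seen, were under it at log2 fold changes of 1.31 and 0.94. Not all of the list rose. Acta1 and Rcan1 were at −0.76 and −0.14, and Myh7 and Tgfb1 at 0.13 and 0.19, each with the groups overlapping. Nppa, that of atrial natriuretic peptide, had 9.10 to 197 FPKM in Chow and 895, 952 and 8.02 in HFpEF replicates 1, 2 and 3. The matrix genes among the 17 are also fibroblast genes, and Col1a1 is itself on the fibroblast marker list. Fibroblast markers moved with these matrix genes, a part that was not tested. Without replicate 3 the median was 0.97 and 5 of the 17 had an adjusted p under 0.05, against 8.35% of all genes tested. Of 8 genes known to rise with corticosteroid receptors, all tested with limma, 2 were under an unadjusted p of 0.05, both higher. The share of all genes tested was 23.4% (10.2% higher and 13.1% lower). After adjustment 0 of 8 were under 0.05, and the median log2 fold change of the 8 was 0.0027. Fkbp5, a co-chaperone of these receptors, had 1.42 to 1.76 FPKM in Chow and 2.01 to 3.75 in HFpEF, with no overlap and a log2 fold change of 0.80 (standard error 0.24, adjusted p = 0.144, limma).

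Further markers were checked for the cells that ventricle tissue could hold. Smooth muscle markers had a median log2 fold change of 1.16 with 0 of 7 tested above Chow in every HFpEF mouse, and summed to 548 to 565 FPKM in Chow and 427 to 935 in HFpEF. That median was 0.46 without HFpEF replicate 1 and 2.04 without replicate 2. Among them Acta2 had 53.2 to 77.9 FPKM in Chow and 421, 48.8 and 262 in HFpEF replicates 1, 2 and 3. Des and Smtn, the others of highest level, had log2 fold changes of −0.51 and 0.030. Most of the Chow sum came from Des, at 420 to 438 FPKM in Chow and 243 to 346 in HFpEF. Des was lower in every HFpEF mouse, as the cardiomyocyte markers were. Macrophage markers, led by Lyz2, C1qa and Csf1r, had 3 of 8 above Chow in every HFpEF mouse, against 15.5% of all genes tested. These markers summed to 185 to 235 FPKM in Chow and 234 to 781 in HFpEF. Mesothelial and epicardial markers, led by Msln, Upk3b and Upk1b, had 4 of 6, with sums of 18.7 to 29.3 and 36.4 to 131. Agt is best known as a liver gene, and of 6 liver markers Alb, Serpina1c and Fgb were at 0 in all libraries, while Ttr and Apoa1 reached at most 0.387 and 0.287 FPKM. The sixth, Ahsg, which encodes a plasma protein, had 0.505 to 1.92 FPKM in Chow and 3.09 to 5.84 in HFpEF, higher in every HFpEF mouse. The list summed to 0.505 to 2.26 FPKM in Chow and 3.17 to 5.96 in HFpEF. The part of these markers in the results was not tested.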

How the data were processed

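Left ventricular RNA from 3 Chow and 3 HFpEF mice was compared. HISAT2 alignment (GRCm38 in the submitters' processing notes) and featureCounts per gene led to the FPKM that the authors deposited. The annotation is not given in the sources used here. Groups were taken from the sample titles.

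FPKM times exon length in GENCODE release M21, which held 54495 of the 54532 genes, was a whole multiple of 1 step per library for 96.1% to 96.2% of the values (relative tolerance 1e-06), and read numbers were recovered from that step. All 54 member values were whole (tolerance 1e-05). Counting limits cover counting error only.

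After rescaling by median of ratios (factors 0.999 to 1.00), log2(FPKM + 0.1) was fitted in limma 3.58.1 (trend and robust eBayes, R 4.3.3) for genes with at least 0.5 FPKM in at least 3 libraries. With factors this near 1, the alternative of no rescaling could hardly differ from the main fit. Fold changes are on the log2(FPKM + 0.1) scale. Log2 ratios were compared by exact permutation (Python 3.11.15, scipy 1.17.1). The fit was run on simulated data with changes far larger than those of the members, so that run does not cover changes of their size. 1 pathway gene, counted in its list, is not reported here by name. Members and lists were chosen with earlier results of these data known. Named beside the members were receptors and enzymes fixed by name, up to 6 genes per list without overlap between groups by size of change, the nearest gene to each member, and the 3 markers of highest level per cell type. Promoter sequences came from RefSeq (GRCm38.p6). Alternatives were no rescaling, quantile normalization, a pseudocount of 1 or of 0.01, filters of none or 1 FPKM, plain eBayes, voom on recovered reads, a replicate block, a log2 fold change of at least 1, an unadjusted p and leaving out each library.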

Additional observations from a re-analysis of the deposited data

How the results depend on the processing

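Under every alternative, 0 members met the study's DEG thresholds. With any 1 library left out, members with an adjusted p under 0.05 numbered 0 to 3, the 3 being those without HFpEF replicate 3. Pathway genes with an unadjusted p under 0.05 numbered 3 to 6, the 3 without Chow replicate 1. Cma1 and Edn1 kept direction and side of the threshold in 15 of 15 alternatives. Leaving out a library moved Agt from −0.22 to 0.40, Ednrb from −0.37 to 0.12, Nr3c2 from −0.31 to 0.27 and Ece1 from −0.025 to 0.18 on the log2 scale. Agt was 0.015 with a pseudocount of 1. The Nr3c2 to Nr3c1 ratio ran from −0.24 to 0.24 with a library left out. Ednrb relative to endothelial markers ran from −0.20 to 0.32 and was −0.093 with quantile normalization. The cause was not tested. Read depth limits Agt, Cma1 and Edn1 most, and with 3 mice per group the exact test cannot go below p = 0.1.

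Replicate numbers are shared between the groups only as numbers. Same-numbered libraries had correlations of −0.041, −0.073 and −0.057 between their deviations from the group means, and no library correlated above 0.072 with any of the other group. With the replicate number as a block in limma, 5 members had an unadjusted p under 0.05, against 3004 of the 14227 genes tested. An adjusted p under 0.05 was reached by 0 members, against 2 of all genes tested. Of the pathway genes, 4 had an unadjusted p under 0.05. The exact p of the Ednra to Ednrb difference of 0.66 was 0.25, the lowest that 3 pairs allow, in place of 0.1. In this balanced design the block cannot move a mean difference.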
